A study of Mus musculus with 6 samples.

Results

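The interferon-stimulated antiviral genes described here are 38 mouse genes named by symbol, each with exactly 1 row of its own among the 23235 genes of the authors' deposited table. RNA was sequenced from cultured bone marrow-derived macrophages of homozygous GRdim mice, whose glucocorticoid receptor carries a mutation that impairs dimerization. The LPS group holds 3 samples of these cells given lipopolysaccharide (LPS), the bacterial cell wall component sensed by Tlr4, for 6 h. The LPS+Dex group holds 3 samples of the same genotype that received 1 µM of the synthetic glucocorticoid dexamethasone (Dex) overnight before the same LPS treatment. All 6 samples therefore carry the mutant receptor and LPS, and the comparison asks how interferon-stimulated genes differ with the hormone under those conditions. No cells with the normal receptor, and none without LPS, are part of this comparison. The labels give neither the strain nor the age of the animals, nor whether samples within a group are from separate animals.

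Macrophages that sense LPS through Tlr4 make interferon beta, which acts back on the cells through the receptor chains Ifnar1 and Ifnar2. The kinases Jak1 and Tyk2 then phosphorylate STAT factors such as Stat2, which join Irf9 and bind the interferon-stimulated response element (ISRE) in front of antiviral genes. Some of the same elements are also bound by Irf3 and other interferon regulatory factors without interferon. The products of these genes block viral entry, RNA translation, replication and release.

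The table gives 1 value per gene and group in FPKM (fragments relative to transcript length and library size), so the spread between the samples of a group cannot be shown and whether their values overlap is unknown. A gene is said to have risen or fallen where the deposited q, the p-value adjusted over all 11755 genes with a test, is under 0.05. The standard error (SE) of a log2 fold change is the one implied by the deposited test statistic, and 95% intervals are built from it. In bulk samples, fewer expressing cells and less RNA per cell cannot be told apart. The receptor gene Nr3c1, whose level is no check of a point mutation, fell from 32.0 FPKM in LPS to 28.6 in LPS+Dex (log2 −0.16, SE 0.048). With the median change of genes at the same level subtracted, it was not called (−0.097). Macrophage markers were at high levels, among them Cd68 at 588 FPKM in LPS and 686 in LPS+Dex, and Csf1r at 142 and 168. Lyz2 was listed at 0 in both groups with the status HIDATA, which is not a measurement.

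The letters of the element that the pathway works through were looked for in front of the genes; a match is not a measure of binding. The ISRE core was searched as GAAA, any 2 bases and GAAA on both strands of the 250 bases before each start in RefSeq's promoters (GRCm38.p6), where 28 of the 38 genes had an entry. It was found in 9 of the 28 genes (32.1%), against 3.46% of all 27025 genes with an entry. The 9 genes were Bst2, Ifi205, Ifit1, Ifit3, Isg15, Oas1a, Oas1g, Oas3 and Rsad2. The stretches of 5 of them are given 5′ to 3′ on the gene's strand, with every match in capitals and bases inside annotated exons left off.
Isg15 (chr4:156200819-156200978, minus strand): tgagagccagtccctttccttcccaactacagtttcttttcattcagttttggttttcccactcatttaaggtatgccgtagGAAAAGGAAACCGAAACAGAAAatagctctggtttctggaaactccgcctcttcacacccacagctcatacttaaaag
Ifit1 (chr19:34640744-34640870, plus strand): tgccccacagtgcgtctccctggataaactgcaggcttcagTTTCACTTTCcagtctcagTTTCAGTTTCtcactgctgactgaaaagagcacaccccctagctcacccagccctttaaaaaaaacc
Ifit3 (chr19:34583369-34583528, plus strand): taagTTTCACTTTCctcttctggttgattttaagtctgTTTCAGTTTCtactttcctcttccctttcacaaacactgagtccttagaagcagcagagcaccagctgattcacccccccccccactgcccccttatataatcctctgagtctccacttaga
Ifi205 (chr1:174031811-174031915, minus strand): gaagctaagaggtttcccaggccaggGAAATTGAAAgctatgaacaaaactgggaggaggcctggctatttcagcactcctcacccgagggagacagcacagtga
Bst2 (chr8:71537473-71537632, minus strand): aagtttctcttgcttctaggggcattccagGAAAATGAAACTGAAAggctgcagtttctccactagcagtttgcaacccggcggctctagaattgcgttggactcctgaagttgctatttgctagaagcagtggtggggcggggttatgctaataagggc

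In Isg15 the capitals hold 3 overlapping matches, and in Bst2 they hold 2. In Ifit1 and Ifit3 the matches read as 2 TTTC blocks, the same core on the other strand. The Ifit1 stretch spans the whole gap between the first exon of Ifit1 and that of its neighbour Ifit1bl2 (listed in the table as 2010002M12Rik), which is transcribed the other way. No entry was present for Usp18, Oas1b, Oas2, Mx1, Mx2, Parp9, Parp14, Ifi204, Rtp4 and Tor3a.

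With Dex, 29 of the 35 tested genes fell, 1 rose and 5 were not called. The background over all 11755 tested genes was 25.2% lower and 17.7% higher, 42.9% in either direction. The decreases were small, with a median log2 fold change of −0.27 over the 35 genes (82.7% of the LPS level) against −0.011 over all tested genes. The range ran from −0.73 for Parp14 to 0.16 for Oas2, with quartiles of −0.39 and −0.21. The implied SE lay between 0.048 and 0.090, so the spread among the genes, an SD of 0.19, was wider than the error of a typical gene. Of the 35 tested genes 2 fell by at least 1.5-fold, near the background share of 5.5% over all tested genes. Among the 2996 tested genes at or above the level of the scarcest of the 35, 158 did so. While 8 of the 35 genes stood at least 25% below LPS, the share of all tested genes that did so was not counted. The lower quartile was −0.19 over all tested genes and −0.24 among those at or above the level of the scarcest of the 35. Ifit2, Rsad2 and Cmpk2 had no test, being listed at 0 in both groups with the status HIDATA, and their levels are unknown.

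**Figure D1:**
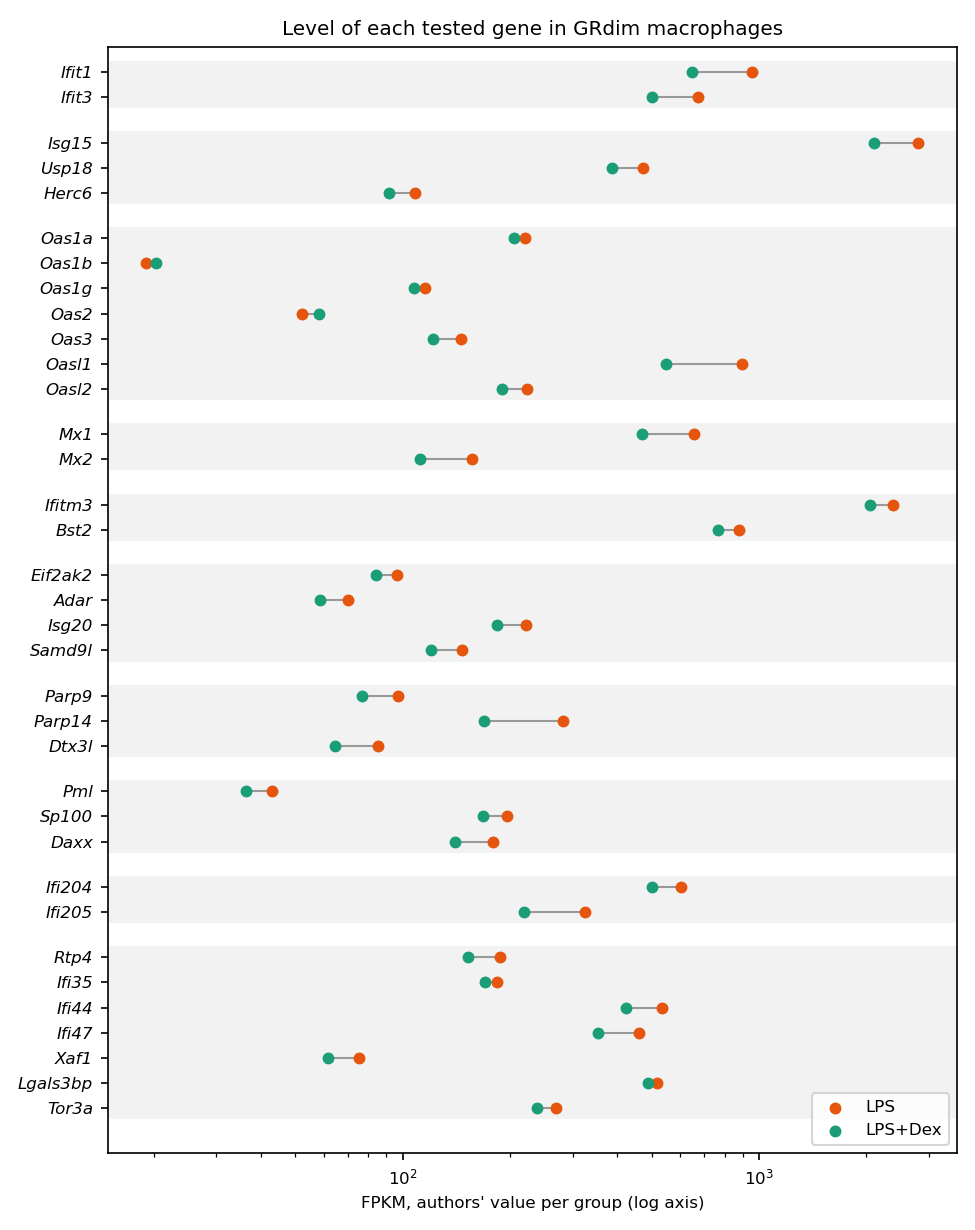
Level of the 35 tested genes in LPS (orange) and LPS+Dex (green) in FPKM on a log axis, grouped by role, 1 point per gene and group as deposited, with no error bars because the table holds no value per sample. Isg15 and Ifitm3 have the highest levels in both groups, at 2053 FPKM or more, and only Oas1b and Oas2 have the green point to the right of the orange one.

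**Figure D2:**
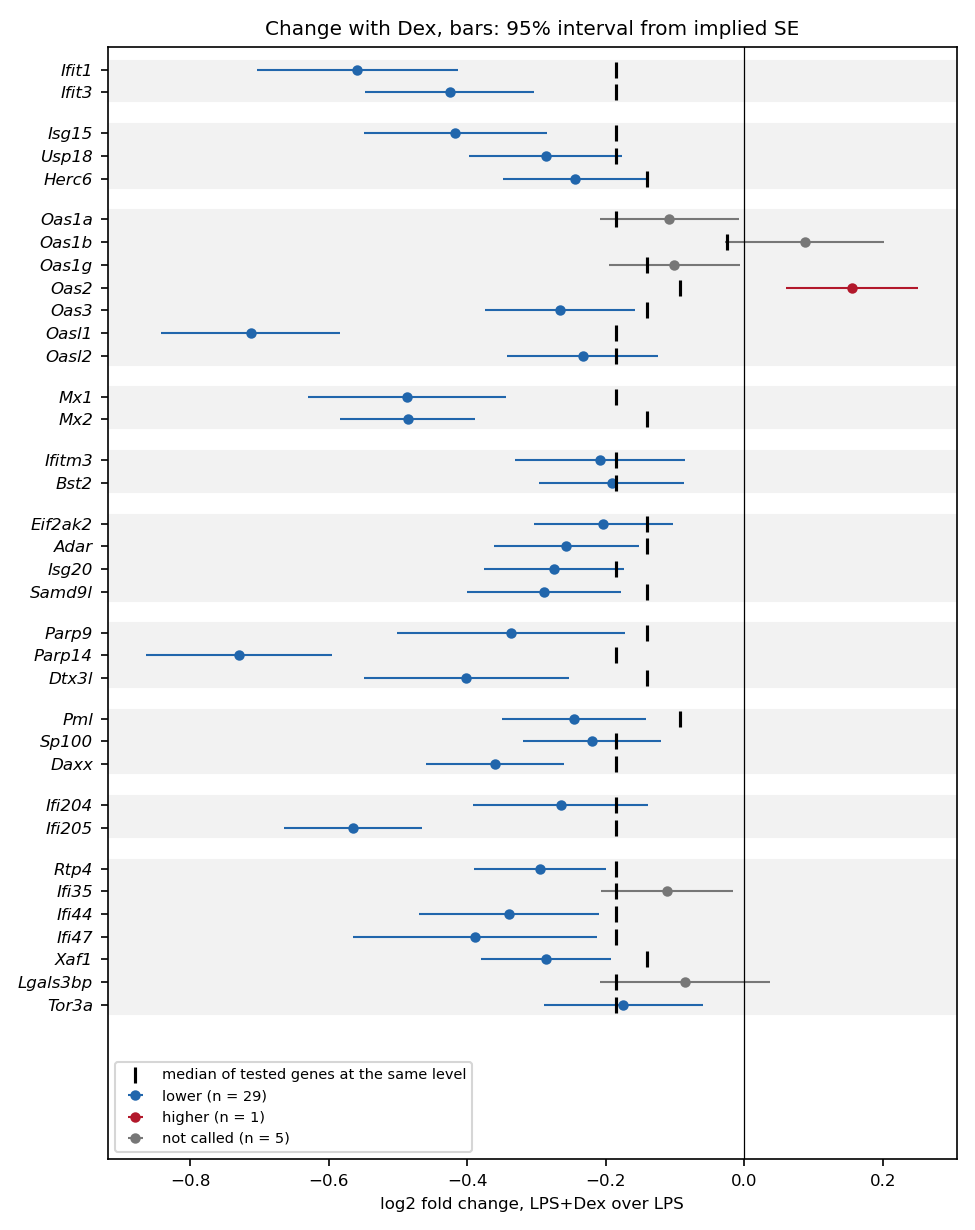
Log2 fold change of LPS+Dex over LPS for the same genes, with 95% intervals from the implied SE and colours for the call at q under 0.05. The black tick is the median change of tested genes at the same level; 28 of the 35 genes lie below their tick and 7 above.

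These genes were abundant, and the median change of abundant genes was below 0 with Dex. In LPS 27 of the 35 were at 100 FPKM or more, while the median of all tested genes was 5.77 FPKM, and 32 of the 35 fell in the 2 highest of 20 bins of mean level. The median change of all tested genes in those bins was −0.14 and −0.19, compared with 0.10 in the lowest bin. Among the 2996 tested genes at or above the level of the scarcest of the 35, 45.5% fell and 12.9% rose. After the bin median was subtracted, 14 of the 35 genes were lower, 1 was higher and 20 were not called, and the median was −0.12. The background of that call was 21.2% lower and 18.5% higher over all tested genes, and 24.7% lower and 24% higher among the abundant ones. Changes below are as deposited, and the value relative to genes of the same level is added for each named gene whose call it ends.

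**Figure D3:**
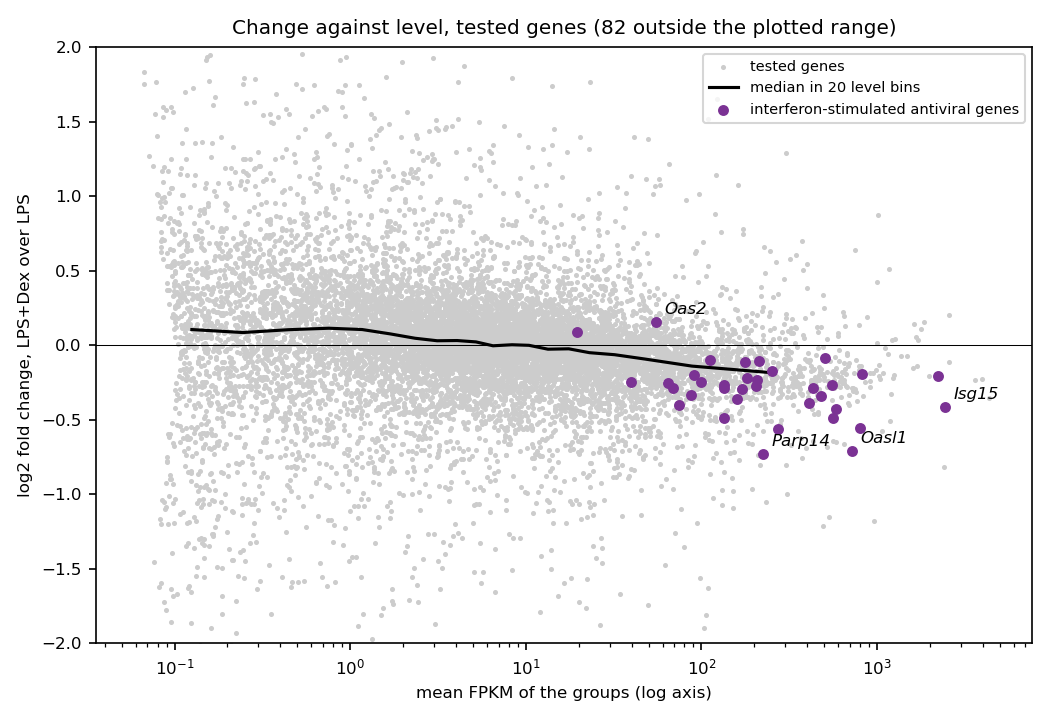
Log2 fold change against mean FPKM (log axis) of all tested genes (grey), the interferon-stimulated antiviral genes (purple) and the median of tested genes in 20 bins of level (line). The line falls from 0.10 at the lowest levels to −0.19 at the highest, and most purple points lie under it, with Parp14 and Oasl1 lowest and Oas2 above.

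Markers of other cells were low. Those of neutrophils summed to 5.55 FPKM in LPS and 3.50 in LPS+Dex over 5 genes, and the 3 with a test (Camp, Ltf and Ngp) fell. Those of plasmacytoid and conventional dendritic cells, the former a strong source of interferon, summed to 1.14 and 0.526 FPKM over 6 genes. Ccr9 and Xcr1, the 2 with a test, fell, while Siglech was at 0.012 FPKM in both groups. Those of stromal cells summed to 1.94 and 1.98 FPKM over 4 genes, nearly all of it Pdgfrb (1.93 and 1.97), which was not called. Markers of T and NK cells, of B cells and of erythroid cells each summed to less than 0.15 FPKM. Of 7 tested macrophage markers 4 rose, 1 fell and 2 were not called. The part of these markers in the fall of the interferon-stimulated genes was not tested.

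Ifit1 and Ifit3 belong to the IFIT family, whose members bind viral RNA and hinder its translation. Ifit1, which recognises RNA caps that lack methylation, stood at 952 FPKM in LPS and 647 in LPS+Dex (log2 −0.56, SE 0.074). Ifit3 stood at 672 and 500.4 FPKM (log2 −0.43, SE 0.062). Both fell, and both were also lower than genes of the same level, by −0.37 and −0.24. Of the 50-base words in the longest GENCODE M21 transcript of Ifit3, 51.2% also occur in Ifit3b, so reads may have been divided between them. Ifit1 shares 7.13% of its words with other genes. Of 6 further OAS and IFIT genes with a test, the 3 IFIT genes fell, also relative to genes of the same level, and the 3 OAS genes were not called. Gm14446 (Ifit1bl1) fell from 174 to 88.8 FPKM (log2 −0.97, SE 0.050), I830012O16Rik (Ifit3b) from 150.1 to 91.0 (log2 −0.72, SE 0.048) and 2010002M12Rik (Ifit1bl2), across the shared gap from Ifit1, from 27.5 to 19.8 (log2 −0.47, SE 0.049). The falls of Gm14446 and I830012O16Rik were larger than that of Ifit1, and that of 2010002M12Rik was smaller. Oas1c showed 5.97 FPKM in LPS and 5.81 in LPS+Dex (log2 −0.039), and Oas1d and Oas1h were at 0.31 FPKM or less in both groups. I830012O16Rik, 2010002M12Rik, Oas1d and Oas1h were named after their values were seen.

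Isg15, a ubiquitin-like protein that is joined to other proteins and also secreted, was the most abundant of the 35 genes. It fell by 25.1%, from 2799 FPKM in LPS to 2096 in LPS+Dex (log2 −0.42, 95% interval −0.55 to −0.28). Its sequence above has the densest run of ISRE cores of those printed. Usp18, the protease that takes Isg15 off its targets and restrains the interferon receptor, stood at 473 and 388 FPKM (log2 −0.29, SE 0.057). Herc6, the ligase for Isg15 in mice, stood at 108 and 91.6 FPKM (log2 −0.24, SE 0.054). All 3 fell, but relative to genes of the same level only Isg15 was still lower, while Usp18 (−0.10) and Herc6 (−0.10) were not called. For Herc6, 23.8% of 50-base words are shared with the annotated gene Gm45193. Of the other enzymes of this conjugation system, Trim25 fell from 152 to 101 FPKM (log2 −0.58, SE 0.056) and the conjugating enzyme gene Ube2l6 fell from 197 to 162 (log2 −0.29, SE 0.048). Trim25 was also lower relative to genes of the same level, and Ube2l6 was not called there (−0.0996). The activating enzyme gene Uba7 showed 120.1 FPKM in LPS and 124 in LPS+Dex without a call (log2 0.044, q = 0.534), with a 95% interval of −0.057 to 0.14, and was higher relative to genes of the same level (0.18).

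The OAS family was the most mixed, with 3 of 7 genes lower, 1 higher and 3 not called. Over all tested genes 25.2% fell and 17.7% rose. Among tested genes at or above the level of the scarcest of the 35, 45.5% fell and 12.9% rose, near the family's shares. Relative to genes of the same level 1 OAS gene was lower, 1 was higher and 5 were not called. Some enzymes of the OAS family sense double-stranded RNA and make the messenger that switches on RNase L, while Oasl1 lacks that activity. Oasl1, which in mice limits translation of Irf7, stood at 897 FPKM in LPS and 548 in LPS+Dex. Its change of −0.71 (95% interval −0.84 to −0.58) was 1 of the 2 that passed 1.5-fold. Oasl2, beside it on chromosome 5, stood at 223 and 189 FPKM (log2 −0.23, 95% interval −0.34 to −0.12). The intervals of these neighbours do not overlap, so Oasl1 fell further than Oasl2 by more than the implied error. Oasl2 was not called relative to genes of the same level (−0.048).

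The remaining OAS genes lie together on chromosome 5 (mm9), from the start of Oas2 at 121180341 to the end of Oas1a at 121357534, and did not move together. Oas2 rose from 52.2 to 58.2 FPKM (log2 0.16, SE 0.049), with q = 0.00441. Oas3, next to it, fell from 146 to 121 FPKM (log2 −0.27, SE 0.055) and was not called relative to genes of the same level (−0.13). Oas1b, which protects mice against flaviviruses where its full form is present, showed 19.1 FPKM in LPS and 20.2 in LPS+Dex without a call (log2 0.087, q = 0.236). Oas1g showed 115 FPKM in LPS and 107 in LPS+Dex without a call (log2 −0.10, q = 0.0800). Oas1a showed 221 FPKM in LPS and 205 in LPS+Dex without a call (log2 −0.11, q = 0.0749). Relative to genes of the same level Oas1g and Oas1a stood at 0.039 and 0.077, on the other side of 0. The intervals of Oas2 and Oas3, 0.060 to 0.25 and −0.37 to −0.16, lie on opposite sides of 0.

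Oas1a and Oas1g are close copies, and 57.6% and 54.7% of their 50-base words occur in another gene, so their values are uncertain. Their promoters carry the same ISRE letters next to the start, in a run of 2 overlapping matches.
Oas1a (chr5:120907526-120907685, minus strand): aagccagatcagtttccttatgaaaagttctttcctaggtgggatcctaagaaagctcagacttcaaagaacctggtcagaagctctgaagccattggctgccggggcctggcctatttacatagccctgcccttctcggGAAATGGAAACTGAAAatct
Oas1g (chr5:120887614-120887773, minus strand): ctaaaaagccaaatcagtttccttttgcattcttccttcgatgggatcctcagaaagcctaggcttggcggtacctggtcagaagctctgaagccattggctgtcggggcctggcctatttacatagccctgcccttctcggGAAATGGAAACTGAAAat

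Across the tested genes, a match to the ISRE core did not go with a uniform response. The 8 tested genes with a match had a median change of −0.34 and 6 of them fell, Oas1a and Oas1g being the others. The 17 tested genes with an entry and no match had a median of −0.26 and 15 fell. Oasl1, among the furthest down, has no match in this window, which says only that these letters are not in it. The gamma-interferon activation site TTCNNNGAA was found in 5 of the 28 genes (17.9%), against 8.13% of all genes with an entry. The palindromic glucocorticoid response element, searched as AGAACA, any 3 bases and TGTTCT, was found in 0 of the 28 genes, and in 3 of all 32851 promoters.

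The Mx proteins are dynamin-like GTPases that trap viral ribonucleoproteins. Mx1 stood at 656 FPKM in LPS and 468 in LPS+Dex (log2 −0.49, SE 0.073), and Mx2 at 156 and 112 FPKM (log2 −0.49, SE 0.049). Both neighbours on chromosome 16 fell by nearly the same factor from different levels. Both remained lower relative to genes of the same level, by −0.30 and −0.35.

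Ifitm3 and Bst2 act in membranes, the former against fusion of entering viruses and the latter, tetherin, against release of budding ones. Ifitm3 stood at 2372 FPKM in LPS and 2053 in LPS+Dex (log2 −0.21, SE 0.063). Bst2, which also marks plasmacytoid dendritic cells in mice, stood at 878 and 769 FPKM (log2 −0.19, SE 0.053). Both fell as deposited, and neither was called relative to genes of the same level, at −0.023 and −0.0058. Close relatives fell with Ifitm3. Ifitm1 fell from 49.8 to 26.8 FPKM (log2 −0.89, SE 0.085) and Ifitm2 from 805 to 649 (log2 −0.31, SE 0.050), the latter named after its values were seen.

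All 4 genes that act on RNA or translation fell. The double-stranded RNA kinase gene Eif2ak2 (PKR) stood at 96.7 FPKM in LPS and 84.0 in LPS+Dex (log2 −0.20, SE 0.051). Adar, which edits adenosines in double-stranded RNA, stood at 70.0 and 58.6 FPKM (log2 −0.26, SE 0.053). The RNA exonuclease gene Isg20 stood at 222 and 184 FPKM (log2 −0.27, SE 0.052). Samd9l, a restriction factor for poxviruses, stood at 147 and 120.3 FPKM (log2 −0.29, SE 0.057). Samd9l alone of the 4 was lower relative to genes of the same level (−0.15), while the other 3 lay between −0.12 and −0.063 and were not called.

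Parp14, Dtx3l and Parp9, neighbours on chromosome 16, fell together and also relative to genes of the same level. The values on that scale were −0.54 for Parp14, −0.26 for Dtx3l and −0.20 for Parp9. The last was close to the threshold (q = 0.0493 with the bin median subtracted). Parp14, an ADP-ribosyltransferase that takes part in macrophage activation, had the largest decrease of the 35 genes. It fell by 39.7%, from 281 FPKM in LPS to 169 in LPS+Dex (log2 −0.73, 95% interval −0.86 to −0.60). The ubiquitin ligase gene Dtx3l stood at 85.0 and 64.3 FPKM (log2 −0.40, SE 0.075). Parp9, whose protein forms a complex with that of Dtx3l, stood at 97.2 and 77.0 FPKM (log2 −0.34, SE 0.084). Dtx3l and Parp9 are listed with the same locus (mm9 chromosome 16, 35926600 to 35972707), so how reads were divided between them is uncertain. Among 5 further PARP genes 3 fell and 2 were not called. Relative to genes of the same level 2 were lower, 1 was higher and 2 were not called. Over all tested genes 25.2% fell, and 45.5% of those at or above the level of the scarcest of the 35. The same shares stand beside the counts of the other gene lists. Parp8 fell from 29.1 to 21.7 FPKM (log2 −0.42, SE 0.049), whereas Parp12 showed 218 FPKM in LPS and 202 in LPS+Dex without a call (log2 −0.11, q = 0.123).

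The PML nuclear bodies hold proteins that silence incoming viral DNA, and all 3 of their genes examined fell. The scaffold gene Pml stood at 43.1 FPKM in LPS and 36.3 in LPS+Dex (log2 −0.25, SE 0.053). Sp100 stood at 196 and 168 FPKM (log2 −0.22, SE 0.051). Daxx, a histone chaperone, stood at 179 and 139.9 FPKM (log2 −0.36, SE 0.051). Pml and Daxx were also lower relative to genes of the same level, and Sp100 was not called there (−0.034).

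Ifi204 and Ifi205 encode HIN-200 proteins, a family of nucleic acid binding proteins on chromosome 1. Ifi205 stood at 325 FPKM in LPS and 219.5 in LPS+Dex (log2 −0.56, SE 0.051), and its promoter holds 1 ISRE match. Ifi204 stood at 603 and 502 FPKM (log2 −0.27, SE 0.065) and was not called relative to genes of the same level (−0.080). Of its 50-base words 30.2% are shared with other genes, mostly Ifi211. The 95% intervals of the pair, −0.66 to −0.46 and −0.39 to −0.14, do not overlap. In a list of further HIN-200 and IFITM genes 9 of 9 fell, 5 of them also relative to genes of the same level, where Pyhin1 stood at 0.030. Aim2, the cytosolic DNA sensor, fell from 40.7 to 26.0 FPKM (log2 −0.65, SE 0.049). Pyhin1 and Aim2 were named after their values were seen.

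Of 7 other interferon-stimulated genes 5 fell and 2 were not called. Ifi47, an immunity-related GTPase gene, stood at 461 FPKM in LPS and 352 in LPS+Dex (log2 −0.39, SE 0.090), and its listed locus also holds Olfr56, at 33.9 and 27.2 FPKM. Ifi44 stood at 535 and 423 FPKM (log2 −0.34, SE 0.066). Rtp4, which encodes a receptor transporter protein, stood at 188 and 153 FPKM (log2 −0.30, SE 0.049). The pro-apoptotic gene Xaf1 stood at 75.3 and 61.7 FPKM (log2 −0.29, SE 0.048), and the torsin gene Tor3a at 269 and 238 FPKM (log2 −0.17, SE 0.059). Xaf1 alone of these was called lower relative to genes of the same level (−0.146). Ifi47 (−0.203) and Ifi44 (−0.154, q = 0.0501) lay further below 0 there but had larger SE and were not called. Rtp4 (−0.11) and Tor3a (0.011) were not called there either. Ifi35 missed the threshold at 184 and 170.2 FPKM (log2 −0.11, q = 0.0502). Lgals3bp, a secreted glycoprotein gene, showed 518 FPKM in LPS and 488 in LPS+Dex without a call (log2 −0.086, q = 0.282).

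Upstream of these genes, the ligand fell while its receptor was not called. The LPS sensor gene Tlr4, named after its values were seen, fell from 11.7 to 9.24 FPKM (log2 −0.34, SE 0.053). It was also lower relative to genes of the same level (−0.34), and its part in the other changes was not tested. Ifnb1, which encodes interferon beta, stood at 1.37 FPKM in LPS and 0.305 in LPS+Dex (log2 −2.16, SE 0.38). Ifna1, Ifna2 and Ifna5 were listed at 0 in both groups and Ifna4 at 0.0070 FPKM in LPS and at 0 in LPS+Dex. Ifnar1 showed 51.9 FPKM in LPS and 51.9 in LPS+Dex without a call (log2 9.5e-05, q = 0.999), with an implied SE of 0.052. Ifnar2 showed 122 FPKM in LPS and 124 in LPS+Dex without a call (log2 0.024, q = 0.805), although higher relative to genes of the same level (0.16). The chains of the interferon gamma receptor went opposite ways. Ifngr1 rose from 6.11 to 8.94 FPKM (log2 0.55, SE 0.067) and Ifngr2 fell from 116 to 96.0 (log2 −0.28, SE 0.048).

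Of 5 signal transducers 4 fell and 1 rose, all by less than 1.5-fold. Relative to genes of the same level 2 were lower, 1 was higher and 2 were not called. Over all tested genes 25.2% fell and 17.7% rose. Stat2 stood at 185 FPKM in LPS and 166 in LPS+Dex (log2 −0.15, SE 0.058), and Irf9 at 36.4 and 33.1 (log2 −0.14, SE 0.055). These subunits of the factor that binds the ISRE fell as deposited and were not called relative to genes of the same level, where Stat2 stood at 0.031 and Irf9 at −0.074. Jak2 fell furthest, from 166 to 113 FPKM (log2 −0.55, SE 0.055), and Tyk2 rose from 52.6 to 58.0 (log2 0.14, SE 0.050). Of 6 interferon regulatory factors 5 fell and 1 rose, and relative to genes of the same level 4 were lower, 1 was higher and 1 was not called. Irf8, a factor of macrophage and dendritic cell identity, fell from 146 to 49.4 FPKM (log2 −1.56, SE 0.048). Irf3 rose from 6.74 to 8.21 FPKM (log2 0.28, SE 0.082). Irf7, which amplifies interferon production, fell from 968 to 850.5 FPKM (log2 −0.19, SE 0.075), but not relative to genes of the same level (−0.0018).

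In a list of 7 genes drawn up as negative regulators of the pathway 6 fell, of which Isg15 and Usp18 are counted above. Relative to genes of the same level 3 of the 7 were lower. Isg15 is 1 of those 3, and whether it restrains the pathway in these mouse cells was not tested. The genes that lost the call were Usp18, Socs3 (−0.040) and Ptpn6 (−0.031), the last 2 named for that reason. Socs1, which blocks the Janus kinases, fell from 99.3 to 41.4 FPKM (log2 −1.26, SE 0.049). Pias1 showed 10.4 FPKM in LPS and 10.6 in LPS+Dex without a call (log2 0.020, q = 0.801). Of 13 nucleic acid sensors and adaptors 9 fell, 1 rose and 3 were not called, and 6 were lower relative to genes of the same level, where Ikbke, 1 of the 9, stood at 0.012. Ifih1 (MDA5), a sensor of long double-stranded RNA, fell from 246 to 186 FPKM (log2 −0.40, SE 0.064). Mavs, the adaptor it signals through, rose from 7.41 to 8.61 FPKM (log2 0.22, SE 0.073). The kinase gene Tbk1 showed 77.6 FPKM in LPS and 72.0 in LPS+Dex without a call (log2 −0.11, q = 0.0594).

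Most other interferon-stimulated genes fell as well. Of 20 in a further list 18 fell, 1 rose and 1 was not called, with a median of −0.29. Relative to genes of the same level 8 were lower and 1 higher, and Trafd1 (0.047) and Psmb8 (0.020), named for this sign change, lay above 0. The T cell attractant gene Cxcl10 dropped from 3077 to 1747 FPKM (log2 −0.82, SE 0.084), and Ms4a4c rose from 285 to 324 (log2 0.18, SE 0.054). Cxcl10 and Cxcl11 are listed with the same locus (mm9 chromosome 5, 92760866 to 92843653), so how reads were divided between them is uncertain. Ifi30 showed 94.96 FPKM in LPS and 88.3 in LPS+Dex without a call (log2 −0.11, q = 0.0704). All 12 genes with a row in a list of interferon-inducible GTPases fell, with a median of −0.30. Relative to genes of the same level 6 were also lower. The 12 include H28, the row matched for the list symbol Ifi44l, whose place in that family was not checked. Tgtp2, which has a close copy in Tgtp1, fell furthest among them, from 238 to 157 FPKM (log2 −0.60, SE 0.099). In all, 71 of 89 tested genes of these lists that are not among the 38 fell, 5 rose and 13 were not called, against backgrounds of 25.2% and 17.7%. Relative to genes of the same level 41 were lower and 8 higher, against backgrounds of 21.2% and 18.5%. Many of the 89 genes are abundant too, with a median of 130 FPKM and a lowest value of 0.14 in LPS. Among tested genes at or above the level of the scarcest of the 35, 45.5% fell and 12.9% rose as deposited. With the bin median subtracted, 24.7% of those abundant genes were lower and 24% higher.

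**Figure D4:**
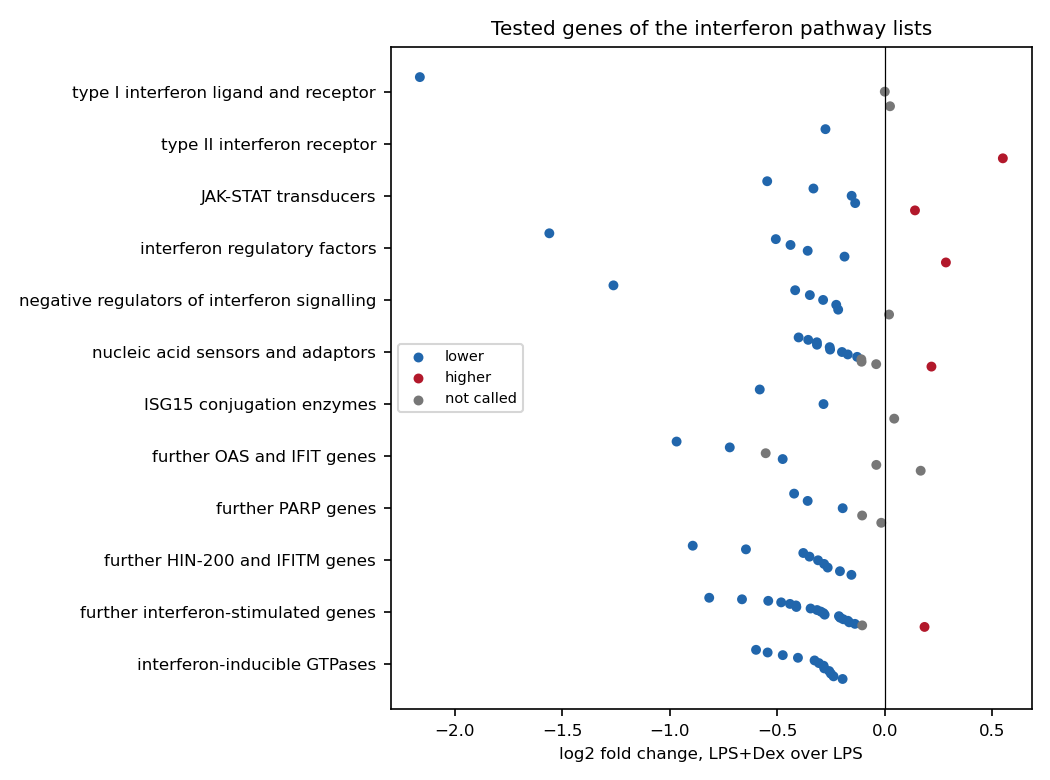
Log2 fold change of LPS+Dex over LPS for each tested gene of the 12 interferon pathway lists, 1 point per gene, coloured by the call at q under 0.05; vertical offsets within a list only separate the points. Ifnb1 at −2.16, Irf8 at −1.56 and Socs1 at −1.26 lie furthest to the left, and most other genes lie between −0.6 and 0.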

How the data were processed

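The authors deposited 1 table of FPKM values per gene and group, with a log2 fold change, a test statistic and p-values and q-values, per the file headers. The submitters' processing notes name CASAVA, TopHat 1.4.1, Cufflinks 2.0.2 and build mm9, without roles or order; the sources used here do not state how samples were combined or scaled, and depth is unknown. The deposited test statistic is a score whose sign is opposite to the fold change. Samples were grouped by their titles, 3 per group. Log2 fold changes were recomputed from the FPKM, and the SE was taken as the absolute ratio of fold change to statistic. Deposited p-values lie within 6.74e-07 of the 2-sided normal tail for the 35 tested genes, 4 of them deposited as 0, and were adjusted over all 11755. Since FPKM is scaled to the library total, abundant genes can shift all others. The trend of change on level was removed by subtracting the median change in 20 equal bins of mean FPKM, with Benjamini-Hochberg adjustment. A test on simulated data came first. It used the trend of these data and the same bins, so it checked only the calculation. Whether the trend is a bias or a change with Dex was not tested. Alternatives were other thresholds, minimum FPKM, centring and pseudocounts. Members, lists and naming rules were chosen with earlier results of these data known. All 38 genes were named; from each list the largest called change each way and the most abundant uncalled gene were named. List symbols absent from the table were matched through RefSeq synonyms; Phf11d, Rnf213, Helz2 and Ly6g were not analysed here, and 1 list gene is not reported here. Any spread behind the deposited test may be technical. Python 3.11.15, pandas 2.3.3 and SciPy 1.17.1 were used.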

Additional observations from a re-analysis of the deposited data

How the results depend on the processing

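No paired analysis was possible because the table holds 1 value per group, and leaving out a replicate could not be run for the same reason. The count of 29 lower genes was 19 with Bonferroni adjustment, 2 at 1.5-fold or more and 0 at 2-fold or more, and 14 with the trend on level removed. The 1 higher gene, Oas2, was lost with Bonferroni adjustment and at 1.5-fold or 2-fold (0 in each), and kept in the other settings. The median of −0.27 became −0.12 with the trend on level removed and lay between −0.27 and −0.25 under minimum values, centring and pseudocounts. With the trend removed 15 of the 29 lower genes lost their call, Tor3a among them, and Ifi35 (0.074), Lgals3bp (0.10), Oas1a (0.077), Oas1g (0.039) and Tor3a (0.011) changed sign. At a minimum of 1 or 5 FPKM Ifi35 was also called lower. For the other pathway genes, 71 lower and 5 higher became 47 and 1 with Bonferroni adjustment, 10 and 0 at 1.5-fold, 3 and 0 at 2-fold, and 41 and 8 with the trend removed.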
